A study of Homo sapiens with 8 samples.

Results

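Interferon-stimulated genes were followed in RNA-seq libraries of Hep3B, a human hepatocellular carcinoma cell line. The set holds 46 genes, out of 16169 gene names in the 2 deposited tables. They were chosen by name from what is known of the interferon response, but with earlier results of these data known. Shares and medians of the members are therefore set beside those of all genes as a description. The set comprised 24 antiviral effectors, 5 sensors of foreign RNA and DNA, 4 interferon regulatory factors, 5 genes of the ISG15 system, 2 immunoproteasome subunits and 6 other members. There were 8 libraries, 2 in each of 4 conditions. These were Hep3B of wild-type genotype, Hep3B with SOX4 knockout (SOX4-/-), wild-type Hep3B transfected with a scramble control siRNA, and Hep3B transfected with STAT6 siRNA, which the labels call a STAT6 knockdown. All were grown in MEM with fetal bovine serum, and none of the conditions named in the labels included interferon or a virus. According to the study the SOX4-/- lines were made with CRISPR/Cas9 and kept in puromycin. Its methods name both of its knockout lines for the deposited RNA-seq, while the labels number the knockout libraries without naming a line. The spread between the knockout libraries may therefore include a difference between lines. The length of siRNA treatment is not given in the labels. The labels do not state that libraries of a condition came from separate cultures, so the p-values measure only the spread between these libraries, which may be technical.

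Interferons bind receptors that activate the kinases JAK1 and TYK2, which phosphorylate transcription factors of the STAT family. A complex of these with IRF9 enters the nucleus and binds a short sequence, the interferon-stimulated response element, in the promoters of the genes described here. Their products degrade viral RNA, block its translation, keep virions from fusing or leaving, tag proteins with the ubiquitin-like ISG15 and change the peptides that the proteasome cuts for antigen presentation. STAT6, the target of the siRNA, belongs to the same protein family but answers to the interleukins of type 2 immunity.

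Libraries held 16266282 to 25353113 expected counts, which are estimates of the reads from each transcript and were summed by gene. Levels are given as CPM (counts scaled to a fixed library total), scaled with TMM (trimmed mean of M-values) factors over all 8 libraries, on which 3 counts were worth 0.0994 to 0.256 CPM. SOX4, the gene targeted in the knockout, was at 728 and 249 CPM in Hep3B libraries 1 and 2 and at 261 and 271 CPM in the libraries labelled SOX4 knockout, so its transcript level gave no check of that label. STAT6 was at 46.2 and 33.9 CPM in the scramble libraries and at 11.5 and 6.49 CPM after STAT6 siRNA, and at 29.1 and 12.4 CPM in Hep3B against 2.42 and 1.98 CPM in the knockout. All 12 hepatocyte markers examined, among them ALB, were listed in both tables. Of the leukocyte markers, CD14, LYZ and CD68 were listed in both, PTPRC in the knockout table alone, and CD3E and MS4A1 in neither. In Hep3B, LYZ was at 42.4 and 5.69 CPM and CD68 at 39.2 and 26.3 CPM. Of the endothelial markers, PECAM1 was listed in both, at 0.518 and 0.0495 CPM in Hep3B, and VWF, CDH5 and KDR in neither.

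Of the 46 members, 36 had a row in the table of the knockout and 29 in that of the siRNA. The smallest sum of counts of a listed transcript over the 4 libraries of a table was 10. The 10 members listed in neither table, under their own or an older symbol, were IFI27, IFI44, IFI44L, MX2, OAS2, RSAD2, TRIM22, DHX58, IFI16 and XAF1, and they have no value here. IFIT1, IFIT3, OAS1, OASL, BST2, PSMB8 and PSMB9 were listed in the knockout table alone. Per kilobase of transcript, the highest mean levels in Hep3B were those of IFITM3 at 186 CPM per kb, LGALS3BP at 124, ISG15 at 38.4 and IFITM2 at 34.3. The libraries of IFITM3 spread from 117 to 255 CPM per kb and held those of LGALS3BP between them, and the ranges of ISG15 and IFITM2 overlapped. The same 4 genes led the other 3 conditions on this scale, with IFITM3 first in the knockout at 765 CPM per kb and LGALS3BP first after scramble siRNA at 269 and after STAT6 siRNA at 375.

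**Figure D1:**
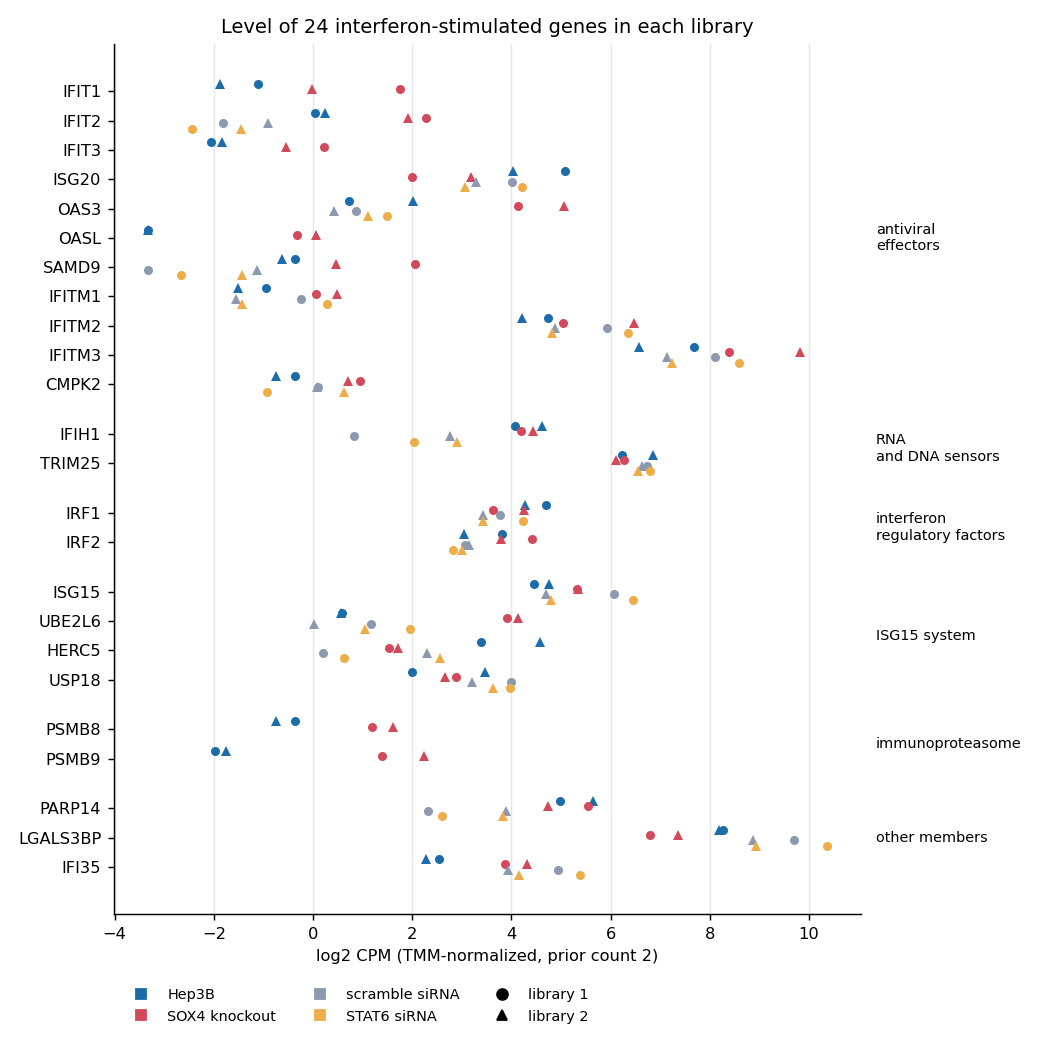
Level of the 24 members described in full, in log2 CPM with a prior count of 2 on the horizontal axis, by role on the vertical axis. Each point is 1 library, circles for library 1 and triangles for library 2, and colours mark the 4 conditions. Red points (SOX4 knockout) lie to the right of both blue points (Hep3B) for UBE2L6, OAS3, PSMB8 and PSMB9 and to the left of them for HERC5 and ISG20.

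In the libraries labelled SOX4 knockout, the members did not move as a block: 4 rose, 1 fell and 29 of the 34 tested did not pass. UBE2L6, PSMB9, OAS3 and OASL rose, and HERC5 fell. These belong to different arms of the response, namely the conjugation of ISG15 (UBE2L6 and HERC5), the immunoproteasome (PSMB9) and oligoadenylate synthetases (OAS3 and OASL). The 5 genes were 14.7% of the members tested and 10.9% of all 46, against 5.89% of all 14415 genes in the fit. A call here is an adjusted p-value (Benjamini-Hochberg) under 0.05 in the quasi-likelihood test of edgeR. By direction, 4 members were higher against 4.50% of all genes, and 1 was lower against 1.39%. Before adjustment, 17 members had a p-value under 0.05, 14 of them higher and 3 lower, against 26.0% of all genes. OAS1 and BST2 were listed but too low to be tested, and IFIT1, IFIT3, OASL, IFITM1 and PSMB9 passed the filter on low counts only through the knockout libraries, so that a difference in this direction was built into their being tested. Both knockout libraries were above both Hep3B libraries for 18 of the 34 members (28.5% of all genes) and below both for 5 (29.7%), and the 18 included those 5 genes. Without either knockout library in turn, 0 members passed, with adjusted p-values of 0.0704 and 0.114 for UBE2L6, the member with the smallest p-value (edgeR, same test). The count also depended on the settings. It was 2, UBE2L6 and OAS3, when only genes with at least 10 counts in every library were tested (518 of 12945 genes in all). With GC content and length offsets it was 3 (574 of 14415 genes), and with DESeq2 it was 10 (2160 of 14415 genes).

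UBE2L6, the enzyme that carries activated ISG15 to its ligases, lies at chr11:57551655-57568330 of hg38. It was at 1.40 and 1.39 CPM in the Hep3B libraries and at 14.9 and 17.4 CPM in the libraries labelled SOX4 knockout. Both knockout libraries stood apart from both Hep3B libraries by far more than the libraries of either group from each other. The log2 fold change was 3.59 (SE 0.48, n = 2 per group, adjusted p = 0.0153, edgeR). The table lists 2 UBE2L6 transcripts that share their 3′ end and differ in their start. The transcript with the inner start, at position 57567707, was estimated at 0.930 and 0.939 CPM in Hep3B and at 14.5 and 17.0 CPM in the knockout. That with the outer start, at 57568330, was at 0.467 and 0.447 CPM in Hep3B and at 0.409 and 0.356 CPM in the knockout. The higher gene level in the knockout therefore lay in the estimate for the inner-start transcript, while that of the outer-start transcript was not above Hep3B in either library. An estimate for 1 transcript rests on the few reads that only it can explain, and it was not tested.

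**Figure D2:**
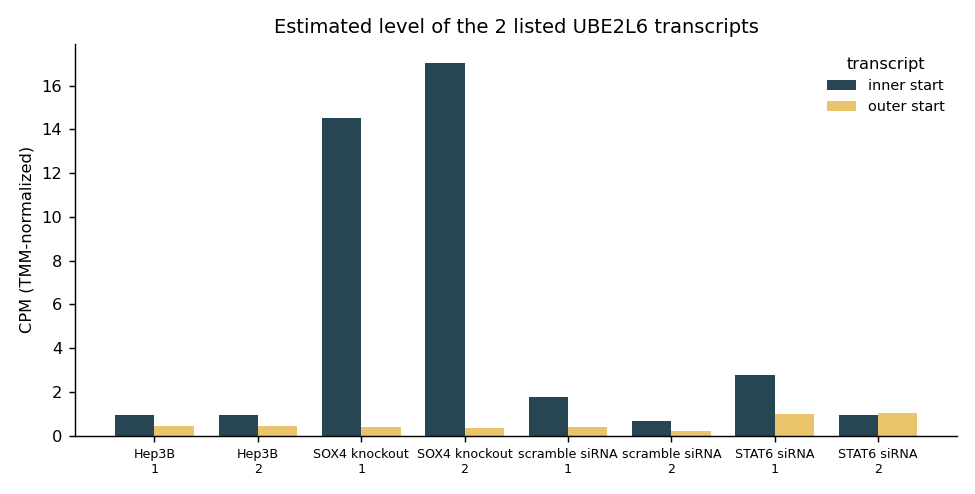
Estimated level of the 2 listed UBE2L6 transcripts in CPM on the vertical axis, in each of the 8 libraries on the horizontal axis. Dark bars stand for the transcript with the inner start and yellow bars for that with the outer start. The inner-start bars of the 2 knockout libraries reach 14.5 and 17.0 CPM, and no other bar exceeds 2.76 CPM.

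PSMB9, an interferon-inducible catalytic subunit of the immunoproteasome, lies at chr6:32854161-32859851. It was at 0.155 and 0.198 CPM in Hep3B and at 2.52 and 4.60 CPM in the knockout, with no overlap. Its log2 fold change was 4.34 (SE 0.77, adjusted p = 0.0271, edgeR), from 3 and 4 counts in Hep3B and 76 and 93 counts in the knockout. PSMB9 passed the filter on low counts only through the knockout libraries, so its being tested already required a difference in this direction. Over 10 alternatives its log2 fold change lay from 3.84 to 4.71. PSMB8, the neighbouring inducible subunit, was at 0.673 and 0.495 CPM in Hep3B and at 2.19 and 2.97 CPM in the knockout. It did not overlap either, but with a log2 fold change of 2.19 (SE 0.66, adjusted p = 0.0931, edgeR) it did not pass.

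OAS3, which makes the oligoadenylates that activate RNase L, lies at chr12:112938433-112973249. It was at 1.55 and 3.96 CPM in Hep3B and at 17.6 and 33.2 CPM in the knockout. The groups did not overlap, and the log2 fold change was 3.26 (SE 0.59, adjusted p = 0.0282, edgeR). Over 12 alternatives it lay from 2.69 to 4.05, the highest without Hep3B library 2, and the call held in 10 of them. OASL, a relative without synthetase activity at chr12:121020292-121039242, had 0 counts in both Hep3B libraries and 21 and 19 counts in the knockout libraries. It passed the filter on low counts only through the knockout libraries. Against a floor of 3 counts per library it was at least 5.38-fold higher (adjusted p = 0.0419, edgeR), but the call held in only 2 of 10 alternatives. It was lost without a filter (adjusted p = 0.0539), with a replicate block (0.0576), with GC content and length offsets (0.0524, and 0.0934 with the block), and with any 1 library left out (0.0517 to 0.258). OAS1, beside OAS3 on chromosome 12, had 0 counts in Hep3B and 7 and 11 counts in the knockout, which is at least 2.58-fold higher over both libraries, at least 1.57-fold in knockout library 1 and at least 3.58-fold in library 2, and was not tested.

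HERC5, the main ligase that joins ISG15 to newly made proteins, lies at chr4:88457117-88506168. It was at 10.3 and 23.8 CPM in Hep3B and at 2.78 and 3.16 CPM in the knockout. Both knockout libraries were below both Hep3B libraries, and the log2 fold change was -2.45 (SE 0.54, adjusted p = 0.0433, edgeR). Over 12 alternatives it lay from -2.98 to -1.76, the smallest change being that without Hep3B library 2. The call held in 5 of the 12, and was lost, for example, when every library needed at least 10 counts (adjusted p = 0.0510, edgeR). ISG15 itself, the modifier, was at 22.0 and 27.0 CPM in Hep3B and at 39.8 and 40.4 CPM in the knockout. These did not overlap, but the log2 fold change of 0.77 (SE 0.34) did not pass (adjusted p = 0.203, edgeR). USP18, the protease that removes ISG15, was at 3.88 and 11.0 CPM in Hep3B and at 7.32 and 6.23 CPM in the knockout, which lay between the Hep3B libraries. HERC6, a relative of HERC5 on the same stretch of chromosome 4, also overlapped (log2 fold change 0.45, SE 0.83, adjusted p = 0.770, edgeR).

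**Figure D3:**
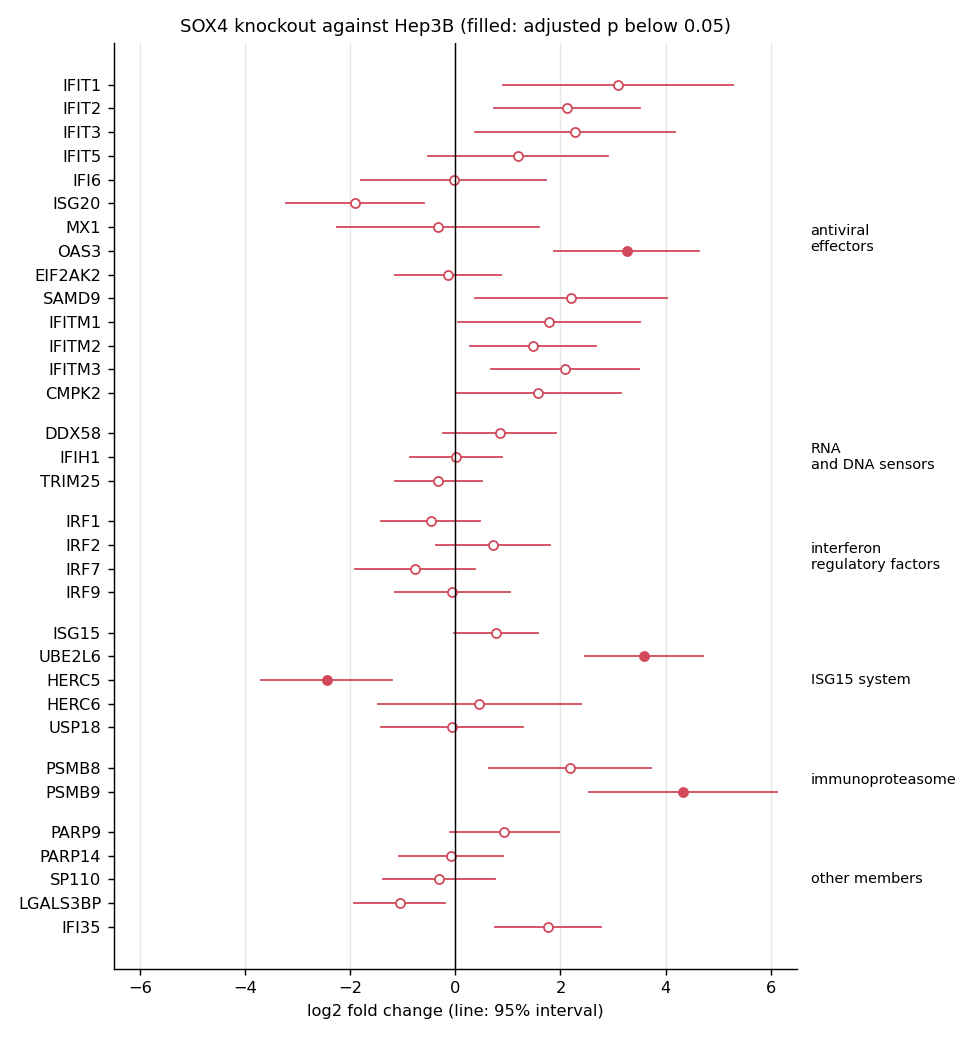
Log2 fold change of 33 members in the libraries labelled SOX4 knockout against Hep3B on the horizontal axis, by role on the vertical axis, from edgeR's quasi-likelihood fit. Points are estimates, lines their 95% intervals, and filled points have an adjusted p-value below 0.05; OASL, at 0 counts in Hep3B, is left out. UBE2L6, PSMB9 and OAS3 lie between 3.26 and 4.34, HERC5 at -2.45, and the factors IRF1, IRF2, IRF7 and IRF9 between -0.77 and 0.72 with intervals that include 0.

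Promoters of 4 of the 5 called members are shown because UBE2L6, PSMB9 and OAS3 rose while HERC5 fell, and because the response element is what the family is known for. The core of that element was searched as TTTCNNTTTC on both strands in the 250 bases before each RefSeq start (GRCh38.p14), where N is any base and matches may overlap. It was present in 24 of 50 promoter windows of the members, covering 21 of the 36 members with an entry, and in 3.02% of the 35116 windows of all genes. The windows below read 5′ to 3′ in the direction of the gene, with each match in capitals. OASL, the other called member, is not shown. For UBE2L6 the window nearest the inner start is given, and IFIT1 is added as a member with paired matches.
OAS3 (chr12:112938224-112938473, plus strand): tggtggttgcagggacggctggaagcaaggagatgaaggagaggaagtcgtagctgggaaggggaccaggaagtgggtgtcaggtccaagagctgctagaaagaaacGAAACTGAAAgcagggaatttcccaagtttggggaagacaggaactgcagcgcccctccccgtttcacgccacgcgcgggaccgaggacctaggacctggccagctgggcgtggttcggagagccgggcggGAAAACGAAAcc
HERC5 (chr4:88456869-88457118, plus strand): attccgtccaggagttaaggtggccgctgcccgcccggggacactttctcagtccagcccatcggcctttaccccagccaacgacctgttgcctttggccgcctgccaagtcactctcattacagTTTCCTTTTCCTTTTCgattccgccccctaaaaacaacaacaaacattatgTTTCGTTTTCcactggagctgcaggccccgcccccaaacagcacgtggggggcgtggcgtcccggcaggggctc
UBE2L6 (chr11:57567673-57567922, minus strand): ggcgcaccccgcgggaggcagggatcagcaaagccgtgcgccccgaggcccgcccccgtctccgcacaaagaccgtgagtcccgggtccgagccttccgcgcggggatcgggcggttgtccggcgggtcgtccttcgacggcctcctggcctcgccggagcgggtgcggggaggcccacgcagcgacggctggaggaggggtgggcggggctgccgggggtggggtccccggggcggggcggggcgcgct
PSMB9 (chr6:32853942-32854191, plus strand): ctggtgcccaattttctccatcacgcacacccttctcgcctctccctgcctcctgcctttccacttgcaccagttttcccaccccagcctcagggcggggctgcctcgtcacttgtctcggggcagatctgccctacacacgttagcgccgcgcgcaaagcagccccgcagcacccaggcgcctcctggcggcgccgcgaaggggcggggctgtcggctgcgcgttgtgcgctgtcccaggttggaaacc
IFIT1 (chr10:89392373-89392622, plus strand): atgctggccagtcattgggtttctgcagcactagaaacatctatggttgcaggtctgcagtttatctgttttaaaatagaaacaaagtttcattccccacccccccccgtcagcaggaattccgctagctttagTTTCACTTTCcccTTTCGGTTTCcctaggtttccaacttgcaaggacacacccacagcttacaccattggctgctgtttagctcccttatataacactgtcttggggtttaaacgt
OAS3 held 2 matches and HERC5 held 3, so the motif was in the window of a member that rose and in that of the member that fell. The windows of UBE2L6 and PSMB9 held none, which says only that these letters do not occur in them. Among members with an entry, 10 of the 17 with a knockout log2 fold change above 0 and 6 of the 11 below 0 held the motif. A match is a description of sequence and was not tested as a binding site.

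Among the antiviral effectors, 17 of 24 were listed and 15 tested in the knockout comparison, and their median log2 fold change was 1.78 against 0.01 over all genes. Since 4 of the 15 could be tested only through the knockout libraries, this median is a description. The IFIT genes, whose products bind viral RNA, were all low. IFIT1 was at 0.362 and 0.173 CPM in Hep3B and at 3.28 and 0.890 CPM in the knockout (log2 fold change 3.09, SE 0.94, adjusted p = 0.0946, edgeR). IFIT2 was at 0.932 and 1.09 CPM in Hep3B and at 4.77 and 3.66 CPM in the knockout (2.12, SE 0.60, adjusted p = 0.0796, edgeR). IFIT3 was at 0.142 and 0.181 CPM in Hep3B and at 1.07 and 0.587 CPM in the knockout (2.27, SE 0.82, adjusted p = 0.136, edgeR). In each of these 3 genes both knockout libraries exceeded both Hep3B libraries, and none passed. For IFIT1 the log2 fold change was 1.83 without knockout library 1, 3.71 without knockout library 2 and 3.81 without Hep3B library 1. IFIT5, the fourth gene of this cluster on chromosome 10, was also without overlap, at 0.414 and 0.940 CPM against 1.85 and 1.09 CPM, with an interval that included 0 (-0.53 to 2.91).

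The IFITM genes encode membrane proteins that hinder the fusion of virions. IFITM3, the member with the highest level per length in the knockout, was at 206 and 94.8 CPM in Hep3B and at 334 and 902 CPM in the knockout. IFITM2 was at 26.7 and 18.4 CPM in Hep3B and at 32.7 and 88.9 CPM in the knockout, and IFITM1 at 0.419 and 0.250 CPM against 0.937 and 1.30 CPM. All 3 were higher in both knockout libraries, and for IFITM3 and IFITM2 knockout library 2 carried much of the difference. The log2 fold changes were 2.08 for IFITM3 (adjusted p = 0.0852), 1.48 for IFITM2 (0.126) and 1.78 for IFITM1 (0.184, edgeR), and without knockout library 2 that of IFITM3 was 1.20 and that of IFITM2 0.59. These neighbours on chromosome 11 are similar in sequence, so the split of reads between them is uncertain.

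SAMD9, a restriction factor for poxviruses, was at 0.673 and 0.544 CPM in Hep3B and at 4.04 and 1.29 CPM in the knockout (log2 fold change 2.20, SE 0.79, adjusted p = 0.133, edgeR). CMPK2, a mitochondrial nucleotide kinase, was at 0.673 and 0.495 CPM in Hep3B and at 1.82 and 1.53 CPM in the knockout (1.58, SE 0.68, adjusted p = 0.190). Neither overlapped and neither passed, and for SAMD9 the log2 fold change was 1.12 without knockout library 1. BST2, or tetherin, which holds budding virions at the cell surface, had 0 counts in Hep3B and 13 and 18 counts in the knockout, at least 4.35-fold higher over both libraries, at least 2.84-fold in knockout library 1 and at least 5.86-fold in library 2, and was not tested. ISG20, an RNA exonuclease, went the other way, at 33.7 and 16.2 CPM in Hep3B and 3.88 and 9.05 CPM in the knockout (-1.91, SE 0.57, adjusted p = 0.0894, edgeR), with -1.32 without Hep3B library 1 and -2.63 without knockout library 2. IFI6, MX1 and EIF2AK2, the latter encoding the kinase PKR, overlapped between the groups, with log2 fold changes of -0.03, -0.33 and -0.14 and adjusted p-values of 0.985, 0.831 and 0.863 (edgeR).

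The sensors and the regulatory factors gave 0 calls among 7 members tested with edgeR and likewise with DESeq2, and 0 had an edgeR p-value under 0.05 before adjustment. Over all genes these shares were 5.89% and 26.0%, so 0 calls among 7 genes does not set these roles apart. IFIH1, the RNA sensor MDA5, was at 16.8 and 24.5 CPM in Hep3B and at 18.3 and 21.6 CPM in the knockout, between the Hep3B libraries. TRIM25, the ubiquitin ligase that activates RIG-I, was at 75.2 and 116 CPM in Hep3B and at 77.3 and 68.6 CPM in the knockout. DDX58, which encodes RIG-I, was higher in both knockout libraries without passing (log2 fold change 0.84, SE 0.46, adjusted p = 0.292, edgeR). IRF1, a transcription factor induced by interferon gamma, was at 25.7 and 19.2 CPM in Hep3B and at 12.3 and 18.9 CPM in the knockout, just below both. IRF2, its antagonist, was at 13.9 and 8.12 CPM in Hep3B and at 21.2 and 13.6 CPM in the knockout, and overlapped. The log2 fold changes were -0.47 for IRF1, 0.72 for IRF2, -0.77 for IRF7 and -0.06 for IRF9, and their 95% intervals together ran from -1.91 to 1.80, so changes of that size were not detectable with 2 libraries a group.

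Of the other members, LGALS3BP, a secreted galectin-binding glycoprotein, was lower in the knockout, at 306 and 290 CPM in Hep3B and 111 and 164 CPM in the knockout (log2 fold change -1.06, SE 0.37, adjusted p = 0.128, edgeR). IFI35, a leucine zipper protein, was at 5.75 and 4.75 CPM in Hep3B and at 14.4 and 19.8 CPM in the knockout (1.76, SE 0.44, adjusted p = 0.0571). PARP14, an ADP-ribosyltransferase, was at 31.6 and 49.8 CPM in Hep3B and at 46.3 and 26.7 CPM in the knockout, and the groups overlapped. Over all 34 members tested the median log2 fold change was 0.81 against 0.01 over all genes, and it was 0.45 over the 29 members not tested through the knockout libraries alone.

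In the pathway around the members, 0 genes passed among 6 interferon receptor genes, 12 JAK-STAT genes and 11 genes of the sensing cascade tested in the knockout (edgeR), against 5.89% of all genes. Before adjustment 0, 1 and 4 of them had a p-value under 0.05, against 26.0% of all genes. The 4 genes of the sensing cascade, named after their values were seen, were IKBKE, IRF5, NLRX1 and MAVS, with log2 fold changes of 2.68, 1.53, 1.499 and 0.86. None of the 8 interferon genes examined, IFNB1 among them, was listed in either table. IFNAR1, the first chain of the type I interferon receptor, was at 67.4 and 83.4 CPM in Hep3B and at 76.0 and 89.3 CPM in the knockout, and IFNAR2, the other chain, at 33.5 and 22.4 against 18.0 and 22.2 CPM. The kinase JAK1 was at 124 and 115 CPM against 128 and 200 CPM. STAT2, a transcription factor of the interferon response, was at 13.7 and 12.02 CPM in Hep3B and at 29.8 and 19.5 CPM in the knockout (log2 fold change 1.00, SE 0.40, adjusted p = 0.165, edgeR). STAT2 and JAK1 were above Hep3B in both knockout libraries without passing, while IFNAR1 overlapped and IFNAR2 was slightly below in both. IRF3, which the sensors activate, was at 59.2 and 42.8 CPM in Hep3B and at 60.3 and 127 CPM in the knockout (0.93, SE 0.44, adjusted p = 0.226).

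Of 29 further interferon-stimulated genes tested in the knockout, 3 rose and 1 fell, where 4.50% of all genes were called higher and 1.39% lower. GBP2, a guanylate-binding GTPase, was at 9.37 and 3.02 CPM in Hep3B and at 34.3 and 33.1 CPM in the knockout (log2 fold change 2.50, SE 0.57, adjusted p = 0.0474, edgeR). TNFSF10, the death ligand TRAIL, was at 0.621 and 0.445 CPM in Hep3B and at 17.8 and 4.94 CPM in the knockout (4.48, SE 0.80, adjusted p = 0.0274). GBP1 had 2 and 0 counts in Hep3B and 98 and 43 in the knockout (adjusted p = 0.0321), a ratio of 55.3 with a 95% counting interval of 15.0 to 461. It passed the filter on low counts only through the knockout libraries, so its being tested already required a difference in this direction, and TNFSF10, with 12 and 9 counts in Hep3B, was near that filter. LAMP3, a lysosomal membrane protein, fell, from 37.4 and 115 CPM to 4.60 and 6.72 CPM (-3.68, SE 0.59, adjusted p = 0.0223). As among the members, both directions occurred.

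Other features of the libraries moved with the knockout label. The summed level of the 12 hepatocyte markers was 13127 to 17017 CPM in Hep3B and 30938 to 47728 CPM in the knockout. After scramble siRNA, the other control, it was 21341 to 22568 CPM, also above Hep3B. In the knockout the markers did not all rise: 10 had a log2 fold change above 0, while AFP (-0.76) and KRT18 (-0.14) lay below. Of the 12, 3 were called higher, against 4.50% of all genes, and ALB did not pass (adjusted p = 0.220, edgeR). That of the 4 listed of 6 leukocyte markers was 33.5 to 82.7 CPM in Hep3B and 166 to 396 CPM in the knockout, most of it LYZ and CD68, with CD3E and MS4A1 not listed. That of the 2 listed of 5 fibroblast markers was 3.47 to 6.28 CPM against 13.7 to 20.9 CPM, with COL1A2, DCN and THY1 not listed. The part of these in the members' values was not tested, and the loss of SOX4, the state of a line grown out after editing and culture in puromycin cannot be told apart. In RNA from whole cultures, more cells with a transcript and more of it per cell cannot be told apart either.

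After STAT6 siRNA, set against scramble siRNA, 0 of the 25 members tested passed with edgeR, and the smallest unadjusted p-value of a member was 0.316, for UBE2L6, so that 0 lay below 0.05. Over all 13554 genes tested 0% passed, and 0.103% had an unadjusted p-value below 0.05. STAT6, the target of the siRNA, was thus not called either, so 0 calls does not show that the members were unchanged. The DESeq2 Wald test also called 0 members. The members' log2 fold changes lay from -0.33 (HERC6) to 0.84 (UBE2L6), with a median of 0.18 against -0.03 over all genes. Both STAT6 siRNA libraries were above both scramble libraries for 1 member, OAS3 (3.29% of all genes), and below both for 1, IRF2 (4.40%). IFIT2, IFIT5, MX1 and SAMD9 were listed but too low to be tested.

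Of the genes called in the knockout, OAS3 was at 1.72 and 1.25 CPM in the scramble libraries and at 2.73 and 2.06 CPM after STAT6 siRNA (log2 fold change 0.63, 95% interval -1.0002 to 2.26, edgeR). UBE2L6 was at 2.15 and 0.912 CPM in the scramble libraries and at 3.75 and 1.97 CPM after STAT6 siRNA (0.84, interval -0.89 to 2.56). HERC5 was at 1.05 and 4.85 CPM in the scramble libraries and at 1.45 and 5.82 CPM after STAT6 siRNA (0.29, interval -1.69 to 2.26). For UBE2L6 and HERC5 the groups overlapped, since in each condition library 1 stood apart from library 2. Between libraries of the same number both genes were higher after STAT6 siRNA, but the numbers were not treated as pairs. OASL, PSMB8 and PSMB9 were not listed in this table.

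Among the members with the highest levels, IFITM3 was at 277 and 141 CPM in the scramble libraries and at 387 and 151 CPM after STAT6 siRNA, and IFITM2 at 60.5 and 29.2 against 81.1 and 28.3 CPM. ISG15 was at 66.7 and 25.9 against 87.6 and 27.7 CPM, and LGALS3BP at 826 and 467 against 1317 and 487 CPM. In all 4 genes library 1 was the higher one in both conditions. IFIH1 was at 1.66 and 6.67 against 4.01 and 7.38 CPM, and PARP14 at 4.86 and 14.8 against 5.97 and 14.1 CPM, with library 2 the higher one in both. TRIM25 was at 107 and 99.1 against 111 and 93.4 CPM, IRF1 at 13.6 and 10.7 against 18.7 and 10.7 CPM, and IRF2 at 8.25 and 8.73 against 6.997 and 7.92 CPM. USP18 was at 15.9 and 9.12 against 15.5 and 12.2 CPM, and IFI35 at 30.5 and 15.1 against 41.9 and 17.6 CPM. ISG20 was at 15.997 and 9.60 against 18.3 and 8.32 CPM, IFITM1 at 0.746 and 0.241 against 1.12 and 0.271 CPM, and CMPK2 at 0.978 and 0.960 against 0.427 and 1.43 CPM.

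**Figure D4:**
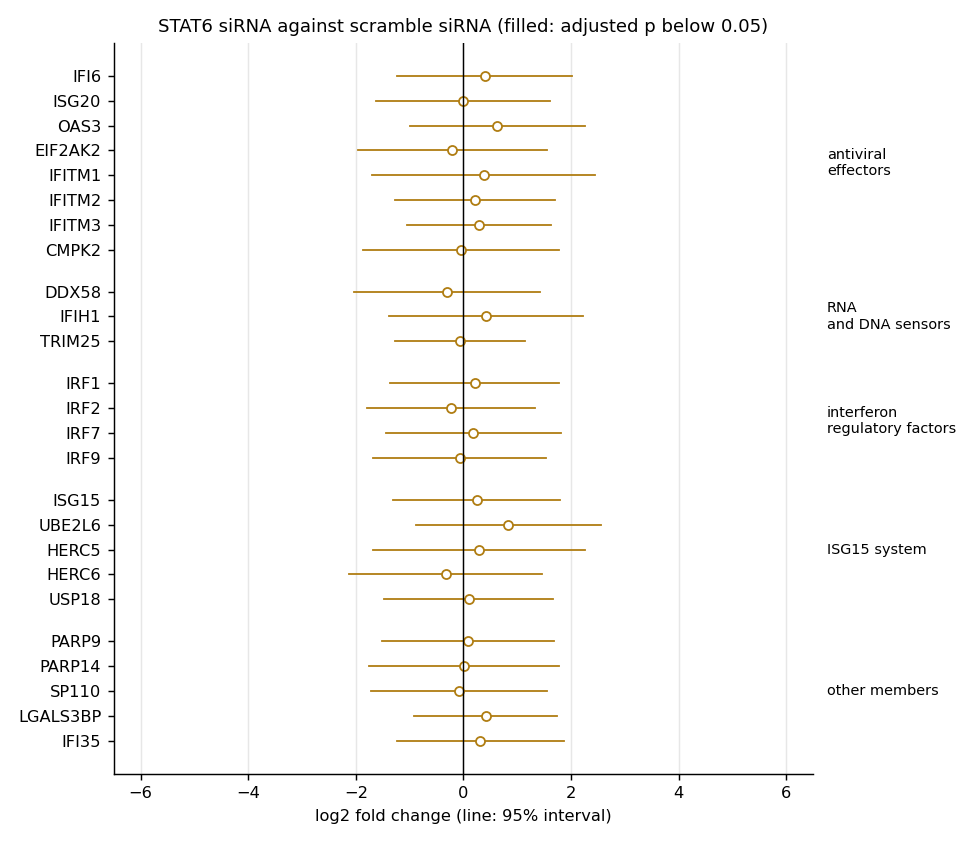
Log2 fold change of the 25 members tested after STAT6 siRNA against scramble siRNA on the horizontal axis, by role on the vertical axis, from edgeR's quasi-likelihood fit. Points are estimates and lines their 95% intervals; no point is filled, as 0 members had an adjusted p-value below 0.05. All estimates lie from -0.33 to 0.84, and every interval includes 0.

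The spread between libraries of a condition followed base composition in the members. Over the 29 members listed in the siRNA table, the log2 difference of library 2 from library 1 fell as the GC content of the transcripts rose, and Spearman's rho over these genes was -0.85 for the scramble pair and -0.84 for the STAT6 siRNA pair. Members of low GC content such as PARP14 (43.9%), IFIH1 (43.3%) and HERC5 (44.1%) were higher in library 2, and those of high GC content such as ISG15 (64.2%) and IFITM3 (56.9%) were higher in library 1. Over the 36 members of the knockout table the correlation was 0.72 in the knockout libraries, of the opposite sign, and -0.34 in the Hep3B libraries. Over all 14246 genes with a GC content in that table it was 0.29 and -0.09, much weaker than among the members, and over the 13413 genes of the siRNA table -0.75 (scramble) and -0.82 (STAT6 siRNA). These points share libraries and are given as a description. Over the same sets of all genes, the log2 fold changes rose with GC content too. Spearman's rho was 0.59 for STAT6 siRNA against scramble siRNA and 0.25 for the knockout against Hep3B. Once GC content and length entered the fit as offsets, UBE2L6, OAS3 and PSMB9 passed in the knockout (log2 fold changes 3.40, 3.13 and 4.12, adjusted p = 0.0236, 0.0414 and 0.0365, edgeR), and OASL (0.0524) and HERC5 (0.0629) did not. In that fit 574 of all 14415 genes passed.

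**Figure D5:**
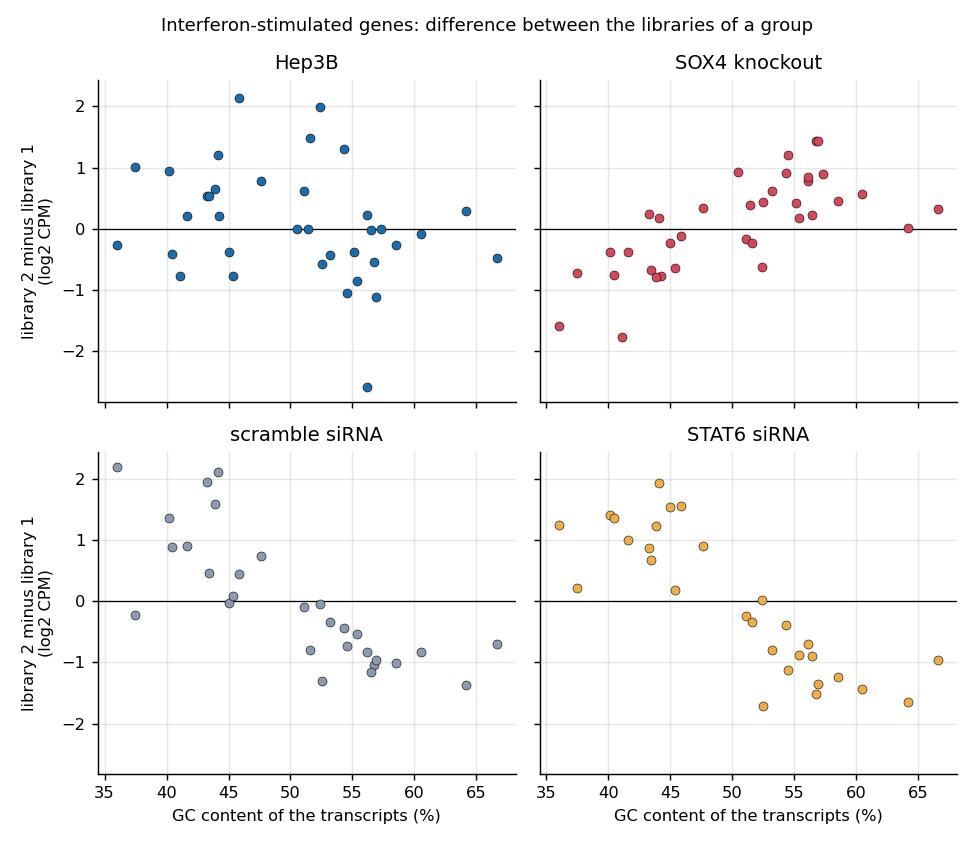
Difference of library 2 from library 1 in log2 CPM on the vertical axis against the GC content of the gene's transcripts in percent on the horizontal axis, with 1 panel for each condition and 1 point for each member listed. Points fall from upper left to lower right in both siRNA conditions (Spearman correlation -0.85 and -0.84) and rise in the knockout (0.72).

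Scramble siRNA libraries and Hep3B libraries are both controls, of different experiments, and were compared in a fit of all 8 libraries. None of the 29 members tested passed (0.00699% of 14313 genes did), and 6 had an unadjusted p-value below 0.05, against 19.6% of all genes (edgeR's quasi-likelihood test). These 6 were IFI35, higher after scramble siRNA, and IFIH1, HERC5, PARP14, IFIT5 and IFI6, lower. IFI35 was at 5.75 and 4.75 CPM in Hep3B and at 30.5 and 15.1 CPM in the scramble libraries (log2 fold change 2.12, SE 0.63, adjusted p = 0.181). HERC5 was at 10.3 and 23.8 CPM in Hep3B and at 1.05 and 4.85 CPM in the scramble libraries (-2.52, SE 0.83, adjusted p = 0.192), and was lower in scramble library 1 than in either knockout library. IFIH1 was at 16.8 and 24.5 against 1.66 and 6.67 CPM (-2.30, SE 0.69, adjusted p = 0.181). For HERC5 the estimate between the 2 control groups was as large as that called in the knockout, without passing. Without scramble library 2, 4 of the 29 members passed, IFI35 higher and 3 lower, as did 1856 of 14542 genes in all, so the members' share was close to that of all genes. Over the 14140 genes with a GC content, the log2 fold change of this comparison rose with GC content (Spearman's rho 0.62). IFI35 (58.5% GC), IFIH1 (43.3%), HERC5 (44.1%), PARP14 (43.9%) and IFIT5 (37.4%) followed that trend, while IFI6 (56.1%) did not. The part of base composition in these values was not tested. Transfection and experiment cannot be told apart here.

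Whether the knockout and the siRNA moved the members differently was tested as the difference between the 2 effects in the same fit. It gave 0 of 29 members, against 0.0769% of all genes, and 5 at an unadjusted p-value below 0.05, against 6.56% (edgeR's quasi-likelihood test). These were UBE2L6, with a difference of 2.64 on the log2 scale (SE 0.92, adjusted p = 0.480), OAS3 (2.51, SE 0.92, adjusted p = 0.512), IFIT2 (2.74, SE 1.15, adjusted p = 0.655), HERC5 (-2.83, SE 1.14, adjusted p = 0.610) and ISG20 (-2.01, SE 0.93, adjusted p = 0.752). The calls in the knockout and their absence after STAT6 siRNA were therefore not shown to differ for any member. OASL and PSMB9, not listed in the siRNA table, could not be compared in this way.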

How the data were processed

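RNA was extracted with TRIzol from 8 Hep3B samples and sequenced after a stranded mRNA preparation. The authors deposited 2 tables of expected counts, that is, estimated counts per transcript that need not be whole, 1 for Hep3B and SOX4 knockout and 1 for scramble and STAT6 siRNA. The submitters' processing notes name STAR, Partek and hg38, with no versions, and the strand setting of the counting is not given in the sources used here. Transcripts were summed by gene name and rounded to whole numbers. A test for counts had been planned, and the same test was used on these expected counts. Genes were filtered with filterByExpr (minimum count 10), normalized with TMM and tested with edgeR 4.0.16 (quasi-likelihood test, limma 3.58.1, R 4.3.3), separately in each table, with Benjamini-Hochberg adjustment over all genes tested and a threshold of 0.05. Comparisons across the tables used genes listed in both and a fit of all 8 libraries. Alternatives were size factors, filters, DESeq2 1.42.0, a replicate block, GC content and length offsets (mgcv 1.9.3) and leaving out each library. Scripts were tested on simulated data. End positions are 1 less than in the tables, which count them from the next base.

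The members and the gene lists were chosen with earlier results of these data known. Values in every library are given for members past the adjusted threshold in any comparison, for those with an unadjusted p-value below 0.05 within a table, and for the 2 members of each role with the highest mean CPM. Of the pathway lists, genes past the adjusted threshold are named, with STAT2, IRF3, IFNAR1, IFNAR2 and JAK1 whatever their values; 1 other gene of this rule is not reported here. IFIT5, IFI6, MX1, EIF2AK2, DDX58, HERC6, OAS1, BST2, IRF7 and IRF9 are named beside them, chosen after their values were seen. Bounds and counting intervals cover counting error only. Motifs were searched in RefSeq promoters of GRCh38.p14.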

Additional observations from a re-analysis of the deposited data

How the results depend on the processing

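In the knockout, the count of members passing was 5, and became 2 when every library needed 10 counts or more, 10 with DESeq2, 3 with GC content and length offsets, 2 with these offsets and the replicate block, 2 in the fit of all 8 libraries, and 0 to 6 with 1 library left out (0 without either knockout library). The members' median log2 fold change of 0.81 became 0.038, 0.996, 1.03 and 0.38 with the count minimum, the offsets, the offsets and block, and the 8-library fit, and 0.54 to 1.21 with 1 library left out. The minimum of 10 counts tests fewer genes; for the other settings the cause was not tested. Over all genes the 849 calls became 518, 2160, 466 and 438 with the count minimum, DESeq2, the offsets and block, and the 8-library fit, and 21 to 2298 with 1 library left out. After STAT6 siRNA, 0 members passed under every alternative, while 62 genes passed with the replicate block and 388 with the offsets and block. The members' median there was -0.066 to 0.38 with 1 library left out, turning below 0 without scramble library 2 or STAT6 siRNA library 1.

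Same-numbered libraries deviated together in the siRNA table (correlation 0.87) and not in the knockout table (-0.08). With only 2 pairs and no label that ties the numbers to a shared culture or day, they were not treated as paired, and the replicate block gave 4 members and 982 genes in the knockout. Between scramble and Hep3B, 4 members passed with DESeq2, 1 in a fit of the 4 control libraries and 0 to 4 with 1 library left out, and the single gene called became 0 with the count minimum and with the block, alone or with offsets, 725 with DESeq2, 2 with offsets, 474 in the 4-library fit and 0 to 1856 with 1 library left out. For the difference between effects, 0 to 1 members passed with 1 library left out, and 11 genes became 1, 167, 97, 54 and 39 with the count minimum, DESeq2, the block, the offsets, and both, and 0 to 127 with 1 library left out.

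Small fold changes of members that were not called changed sign. In the knockout these were IFIH1 (-0.029 with median-of-ratios size factors and with DESeq2, -0.050 in the 8-library fit, -0.28 to 0.28 with 1 library left out), USP18 (0.10 with the block, 0.12 with offsets and block, -0.67 to 0.84) and PARP14 (0.047 with offsets, 0.036 with offsets and block, -0.55 to 0.25). After STAT6 siRNA they were ISG20 (0.11 with size factors and DESeq2, 0.056 in the 8-library fit, -0.62 to 0.47), TRIM25 (0.035 with size factors and DESeq2, -0.14 to 0.046), PARP14 (-0.000442 with the count minimum, -0.83 to 1.03), CMPK2 (0.0017 with offsets, 0.071 with offsets and block, -1.28 to 0.56), IFITM2 (-0.068 with offsets, -0.066 with offsets and block, -0.66 to 0.91) and ISG15 (-0.13 and -0.14, -0.74 to 1.16). With 1 library left out, the range also crossed 0 for HERC5 (-1.13 to 1.79), IFIH1 (-0.22 to 1.75), IFI35 (-0.37 to 0.98), IFITM1 (-0.82 to 1.43), IFITM3 (-0.47 to 0.93), USP18 (-0.24 to 0.61), IRF1 (-0.18 to 0.52) and LGALS3BP (-0.41 to 0.95). With 2 libraries a group and a lone library assumed to vary like the others when 1 is left out, small changes were not detectable.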
